A study of Mus musculus with 7 samples.

Results

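Common myeloid progenitors (CMPs) from the bone marrow of pMT-10 mice were compared with CMPs of BL/6 mice across all genes of a targeted panel. The comparison takes 4 of the 7 libraries of the series, 2 pMT-10 and 2 BL/6, chosen by strain and cell type as labelled. The remaining 3 libraries are haematopoietic stem cells (1 library) and LSK cells, stem and progenitor cells sorted as CD150+ CD48+ (2 libraries), all from pMT-10 mice. The pMT-10 strain overexpresses interleukin-10 (IL-10) from a transgene under the zinc-inducible metallothionein promoter, and BL/6 (C57BL/6) is the control strain. Mice of both strains had drunk water with zinc for 15 days, so the zinc is shared by both groups, and the cells had been isolated by fluorescence-activated sorting. Ages, sexes, sort gates and the number of mice behind a library are not stated, so p-values measure the spread between these libraries, which may be technical.

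CMPs give rise to granulocytes, monocytes, red cells and megakaryocytes. IL-10 is mainly known as a cytokine that restrains macrophages and dendritic cells through STAT3. In chronic inflammation, interferon-γ acts on marrow progenitors and turns production towards myeloid cells. The study's title names interferon-γ, and the interferon, antigen presentation and lineage genes form a large block of this comparison. The description here is of pathways, families and lowered genes beyond those already named for that block, and of how well the 2 pMT-10 libraries matched each other. Some genes below, among them Gbp2, Igtp, Psmb9, Psmb10 and Uba7, may still belong to the block.

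The Il10 amplicon had 0 and 0 counts in the pMT-10 CMPs and 0 and 1 in the BL/6 CMPs, so it does not check the strain labels in these cells. The labelled cell type was set against its markers next. Cd34 had 1089 and 1784 counts in the pMT-10 libraries and 1398 and 1464 in the BL/6 libraries. Kit had 864 and 1209 counts against 3282 and 3387. Cd3d and Cd3g of T cells, C1qa of macrophages and Ly6g of mature neutrophils were at 0 counts in all 4 libraries. Of 21 T and NK cell markers 4 passed the filter on low counts, and their summed level was 43.4 and 39.3 CPM (counts scaled to library size, with TMM factors) in pMT-10 against 16.4 and 17.5 in BL/6. Of the 4, 1 was called higher, and Gzmb had 185 and 149 counts against 18 and 14. Lat (178 and 152 against 137 and 173) and Lck (30 and 35 against 21 and 25) differed less. Of 16 macrophage and monocyte markers 6 passed, at 153 and 152 CPM in sum against 83.6 and 94.7. Of 13 mature neutrophil markers 8 passed, at 36.9 and 39.99 CPM against 33.2 and 18.7. Their median log2 fold change was -1.84, with 1 called higher and 0 lower, so the sum hides a split. Csf3r had 169 and 198 counts against 92 and 63, and Ngp 1 and 3 against 54 and 19. S100a8 (9 and 2 against 29 and 4) and S100a9 (6 and 2 against 51 and 4) overlapped between the groups. Of 17 CMP and granulocyte-monocyte progenitor markers 7 were called higher and 3 lower (58.8%, the highest share of any list), so this list was split too. Elane had 245 and 265 counts against 64 and 37, and Ms4a3 191 and 298 against 36 and 30. Other members lay lower in pMT-10. Myb had 19701 and 16042 counts against 40824 and 43868, Gata2 2861 and 1518 against 8264 and 9064, and Mpo 76 and 52 against 131 and 208. The summed level of the 17 markers was 4091 and 4087 CPM against 5821 and 5475, and abundant members such as Myb weigh most in it. Of 16 megakaryocyte-erythroid progenitor markers 2 were higher and 4 lower, with sums of 11986 and 11006 CPM against 14165 and 16706. The part of differing cell types in the results below was not tested.

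In the edgeR quasi-likelihood fit 3204 of 11429 genes were called (adjusted p under 0.05), which is 28% of them, with 14.3% higher and 13.7% lower in pMT-10 CMPs. This is the background against which each gene group is read. A group with about 28% of its members called holds no more calls than genes at large. The median log2 fold change over all tested genes was 0.01. Totals were 8948534 and 8467014 counts in the pMT-10 libraries and 10952847 and 12652309 in the BL/6 libraries. The strains were sequenced on different chips, so strain and chip cannot be told apart.

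Every called gene had CPM values that did not overlap between the groups, but non-overlap was common in itself (33.2% of all tested genes higher and 33.7% lower). The calls rested on the close BL/6 pair: 582 genes were called without BL/6 replicate 1 and 764 without replicate 2, against 5268 and 4550 without pMT-10 replicate 1 or 2. In those fits the lone library was assumed to vary like the other groups. Leaving out a pMT-10 library also takes the spread of the less alike pair out of the fit. A call kept there is therefore a weak check, and the fits without a BL/6 library are the stricter ones. Of the 147 called genes named here, 85 kept the call without BL/6 replicate 1, 98 without BL/6 replicate 2, 147 without pMT-10 replicate 1 and 147 without pMT-10 replicate 2. In all, 78 kept it in each of these 4 fits and 69 lost it when 1 of the BL/6 libraries was left out, with adjusted p up to 0.275. Of the 40 largest changes described below, 30 kept the call in each fit, and Eif2s3y, LOC108167619, Neat1, Gbp2, Cab39l, Ice1, Ube2e3, Fzd7, Hnrnpa0 and Prdm2 did not. Of the other genes that lost the call, those that were higher in pMT-10 were Alox5ap, Ankrd16, Atf4, Atp6v1e1, Bcl3, Calr, Clec4e, Cope, Cul1, Fancf, Igtp, Il17ra, Lta4h, Map4k4, Med12, Mrpl17, Mrpl40, Mta1, Ncf4, Parp10, Parp14, Parp8, Ptbp1, Ptgs1, Shmt2, Siglecf, Stx3, Tnfrsf14, Traf5, Trim21 and Ube2l6. Those that were lower were Ankrd40, Atp6v1a, Cat, Clec12a, Cpt1a, Cry2, Cul3, Cyba, Dbp, Dlat, Egln1, Eif4ebp2, Hif1a, Kit, Med22, Notch2, Pdha1, Pla2g12a, S1pr1, Sel1l, Smarcd1, Smc3, Smc4, Tceal8, Tef, Tnfrsf21, Trim12c and Trim8. Over all 54 gene lists, 472 called genes became 81 without BL/6 replicate 1 and 123 without BL/6 replicate 2. In bulk RNA a lower level can come from fewer cells of a type or from less RNA per cell, and these cannot be told apart.

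Base composition moved with the result. Genes were put into 10 equal groups by GC content. Among those with the lowest GC content of the transcript (31 to 41.9%), 7.86% were called higher and 22.8% lower. Among those with the highest GC content (58.2 to 71.3%), 21.2% were higher and 6.79% lower. The median log2 fold change went from -0.35 to 0.30 over the same range (Spearman rho 0.222 across 11191 genes of the same libraries). The difference within the pMT-10 pair had a rho of -0.046 with GC content. The LSK minus HSC difference, within pMT-10 but across the 2 chips, had a rho of 0.078. Its median was -0.155 in the lowest GC group and 0.048 in the highest, and chip and cell population cannot be told apart in it. With transcript length the strain log2 fold change had a rho of -0.146. An offset for GC content in each library, added after seeing the data, gave 3076 called genes, of which 2638 were also called without it in the same direction. With it the shares in the lowest group became 15.1% higher and 11.8% lower. The offset was fitted to the trend with GC content in each library, so this evening out was built in. GC content here is that of the longest transcript, since amplicon sequences were not available. Counts with the offset are given beside a group or after the plot of the lists, and the part of base composition in the strain difference was not tested further.

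**Figure D1:**
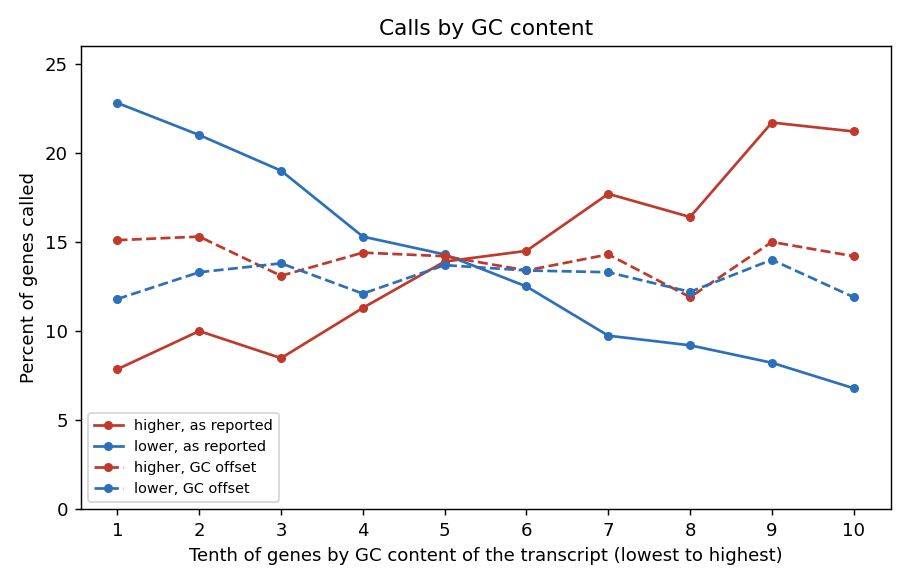
Share of genes called higher (red) and lower (blue) in pMT-10 CMPs, in percent, in 10 equal groups of genes ordered by the GC content of the longest transcript (x axis, from lowest to highest). Solid lines are the fit as reported and dashed lines the fit with a GC offset per library. Called-lower shares fall from 22.8 to 6.79% and called-higher shares rise from 7.86 to 21.2% along the solid lines.

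A pair of sequence elements are background to the increases. TTCNNNGAA is found in promoters that answer to interferon-γ, and interferon regulatory factors bind repeats of the form TTTCNNTTTC (or GAAANNGAAA on the other strand). At least 2-fold higher were 997 of all tested genes (8.72%), and at least 2-fold lower 950 (8.31%). In windows from 250 bases before to 50 bases after the gene start, TTTCNNTTTC stood in 47 of the 725 genes with a window called at least 2-fold higher (6.48%), in 17 of 728 called at least 2-fold lower (2.34%) and in 260 of all 8730 tested genes with a window (2.98%). TTCNNNGAA, which reads the same on both strands, stood in 7.86%, 6.32% and 7.06% of the same sets. Among 155 genes called at least 4-fold higher, 9.03% held TTTCNNTTTC and 11% TTCNNNGAA. Of the 20 genes with the largest increases 16 had a window, 1 of them with TTCNNNGAA and 1 with TTTCNNTTTC. A match describes letters, and binding was not measured. The windows of 3 genes with large increases that hold a match, and that of Picalm, among the largest decreases and with neither element, follow (RefSeq, GRCm38.p6, matches in capitals).

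Igtp (chr11:58199306-58199605, + strand): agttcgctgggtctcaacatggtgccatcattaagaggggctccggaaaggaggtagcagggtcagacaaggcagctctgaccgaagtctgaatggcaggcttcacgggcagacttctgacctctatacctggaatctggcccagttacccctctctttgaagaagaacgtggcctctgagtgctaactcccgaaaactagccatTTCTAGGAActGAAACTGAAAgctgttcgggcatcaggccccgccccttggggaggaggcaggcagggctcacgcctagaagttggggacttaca
Gbp2 (chr3:142620413-142620712, + strand): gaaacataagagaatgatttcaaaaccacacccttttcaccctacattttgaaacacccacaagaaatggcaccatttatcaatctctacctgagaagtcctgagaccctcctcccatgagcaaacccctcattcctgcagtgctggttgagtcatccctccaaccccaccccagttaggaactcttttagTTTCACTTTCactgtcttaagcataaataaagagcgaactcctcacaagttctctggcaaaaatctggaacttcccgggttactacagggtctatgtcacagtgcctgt
Serpina3f (chr12:104214294-104214593, + strand): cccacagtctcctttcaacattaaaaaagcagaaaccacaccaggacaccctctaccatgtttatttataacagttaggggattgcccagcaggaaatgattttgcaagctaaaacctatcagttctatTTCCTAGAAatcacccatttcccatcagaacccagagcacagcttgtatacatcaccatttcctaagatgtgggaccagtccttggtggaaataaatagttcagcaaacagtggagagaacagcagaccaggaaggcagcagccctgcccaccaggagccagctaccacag
Picalm (chr7:90129963-90130262, + strand): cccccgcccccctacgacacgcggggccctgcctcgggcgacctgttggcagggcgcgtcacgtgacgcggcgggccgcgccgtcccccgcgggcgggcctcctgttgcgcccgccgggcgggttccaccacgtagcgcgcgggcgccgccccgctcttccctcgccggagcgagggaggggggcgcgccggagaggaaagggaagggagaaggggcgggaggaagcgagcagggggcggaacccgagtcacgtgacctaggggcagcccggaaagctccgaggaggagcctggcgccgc

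Igtp (Irgm3), an immunity-related GTPase chosen here after its values were seen, holds TTCNNNGAA at bases 206 to 214 and TTTCNNTTTC at 217 to 226 of its window. Its level was 237 and 53.2 CPM in the pMT-10 libraries and 24.8 and 27.6 in the BL/6 libraries (log2 fold change 2.47 ± 0.54 SE, adjusted p = 0.0106). Gbp2, a guanylate-binding protein, was at 168 and 36.6 CPM against 15.5 and 12.2 (2.89 ± 0.57, adjusted p = 0.00697). Both genes were over 4-fold higher in pMT-10 replicate 1 than in replicate 2, and both libraries lay above the BL/6 pair. Serpina3f, a serine protease inhibitor of a cluster of near-identical genes whose reads may be split, was at 30.7 and 53.1 CPM against 1.02 and 0.566 (5.73 ± 0.39, adjusted p = 0.00012). It was higher in replicate 2, so the pair did not differ in one direction for all such genes. Picalm, a clathrin assembly protein that gathers endocytic cargo, was at 15.9 and 18.0 CPM against 136 and 129 (-2.96 ± 0.24, adjusted p = 0.000358).

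With the interferon, class II and lineage genes already named for this comparison left out, the largest increases took in genes of inflammatory signalling. Card9, the adaptor that carries signals of fungal lectin receptors to NF-κB, was at 139 and 151 CPM in pMT-10 against 25.2 and 20.9 in BL/6 (log2 fold change 2.65 ± 0.24, adjusted p = 0.000545). Ffar2, a receptor for short-chain fatty acids, was at 28.0 and 33.4 CPM against 2.49 and 5.57 (2.91 ± 0.35). Map4k2, a kinase upstream of JNK, rose from 6.65 and 6.79 CPM to 33.5 and 47.2 (2.58 ± 0.28). In each of these 3 genes both pMT-10 libraries lay far above both BL/6 libraries.

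Genes of protein turnover rose and fell. Psmb9 and Psmb10, catalytic subunits of the immunoproteasome, rose by 2.95 ± 0.26 and 2.74 ± 0.25 on the log2 scale, with Psmb9 at 179 and 302 CPM against 31.3 and 30.7. From the list of ubiquitin-conjugating (E2) and activating enzymes, Uba7, which activates the ubiquitin-like modifier ISG15, was at 308 and 222 CPM against 47.2 and 50.7 (2.44 ± 0.22). Ube2l6, the matching conjugating enzyme, rose by 1.27 ± 0.21. By contrast Uba6, a second ubiquitin-activating enzyme, fell by 2.16 on the log2 scale, from 55.9 and 50.5 CPM to 14.2 and 9.50. Ube2c, the conjugating enzyme of the anaphase-promoting complex, fell from 266 and 289 CPM to 126 and 96.6 (-1.32 ± 0.20). The E2 list as a whole had 3 of 25 genes higher and 6 lower, or 36% called against the 28%.

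Genes of membrane traffic and metabolism were also among the largest increases. Rab44, a large Rab GTPase of granulocytes and mast cells, rose from 11.3 and 14.1 CPM to 73.4 and 108 (2.84 ± 0.27), and Hk3, the myeloid hexokinase, from 17.3 and 14.3 CPM to 100 and 93.4 (2.62 ± 0.29). Fgd2, an activator of CDC42 in antigen-presenting cells, was at 21.8 and 22.9 CPM against 3.14 and 4.36. Tubb3, a beta-tubulin best known from neurons, was at 37.6 and 52.4 CPM against 4.16 and 2.34 (3.80 ± 0.38). Spaca4, known from sperm and egg, reached 19.8 and 20.9 CPM against 1.75 and 2.10, and Robo3, a guidance receptor, 28.8 and 36.7 against 5.36 and 4.44. Neat1, the non-coding RNA that builds paraspeckles, was at 88.2 and 43.5 CPM against 11.2 and 4.20 (3.11 ± 0.60). The remaining genes of the 20 were Phxr4, AW112010, LOC108167619, Gbp2 and Serpina3f (above), Il12rb1 (described below) and the Y-linked Ddx3y and Eif2s3y.

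Ddx3y had 197 and 320 counts and Eif2s3y 62 and 310 counts in the pMT-10 libraries, and both were at 0 in both BL/6 libraries. Xist had 11904 and 8140 counts in the pMT-10 libraries and 9308 and 8745 in the BL/6 libraries. Among the CMPs, reads of these Y-linked genes were thus found in pMT-10 alone, so sex was not matched between the groups. Both pMT-10 CMP libraries held Xist reads beside the Y-linked reads, so they are not read here as male alone. The number of mice in each is not stated. The part of sex in the differences, on the X chromosome and elsewhere, was not tested. The X chromosome had 32 of 384 tested genes higher (8.33%) and 73 lower (19%), against 14.3% and 13.7% of all genes. Chromosome 18 had a similar split (7.77% higher and 18% lower), and chromosome 13 had 11.5% and 17.8%. Tceal genes, small X-linked transcription elongation factor homologues, fell: Tceal3 from 330 and 517 counts to 15 and 35, Tceal1 from 80 and 72 to 6 and 4, and Tceal8 from 853 and 988 to 428 and 343. In all 4 of 8 tested Tceal and Bex genes fell and 0 rose. The list was drawn up because Tceal3 was already known to be low, so it is no independent support. Chromosome 17, which holds the MHC, had 18.4% of its 587 genes higher and 11.8% lower, and chromosome 8 had 18.4% and 11.3% of 604.

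**Figure D2:**
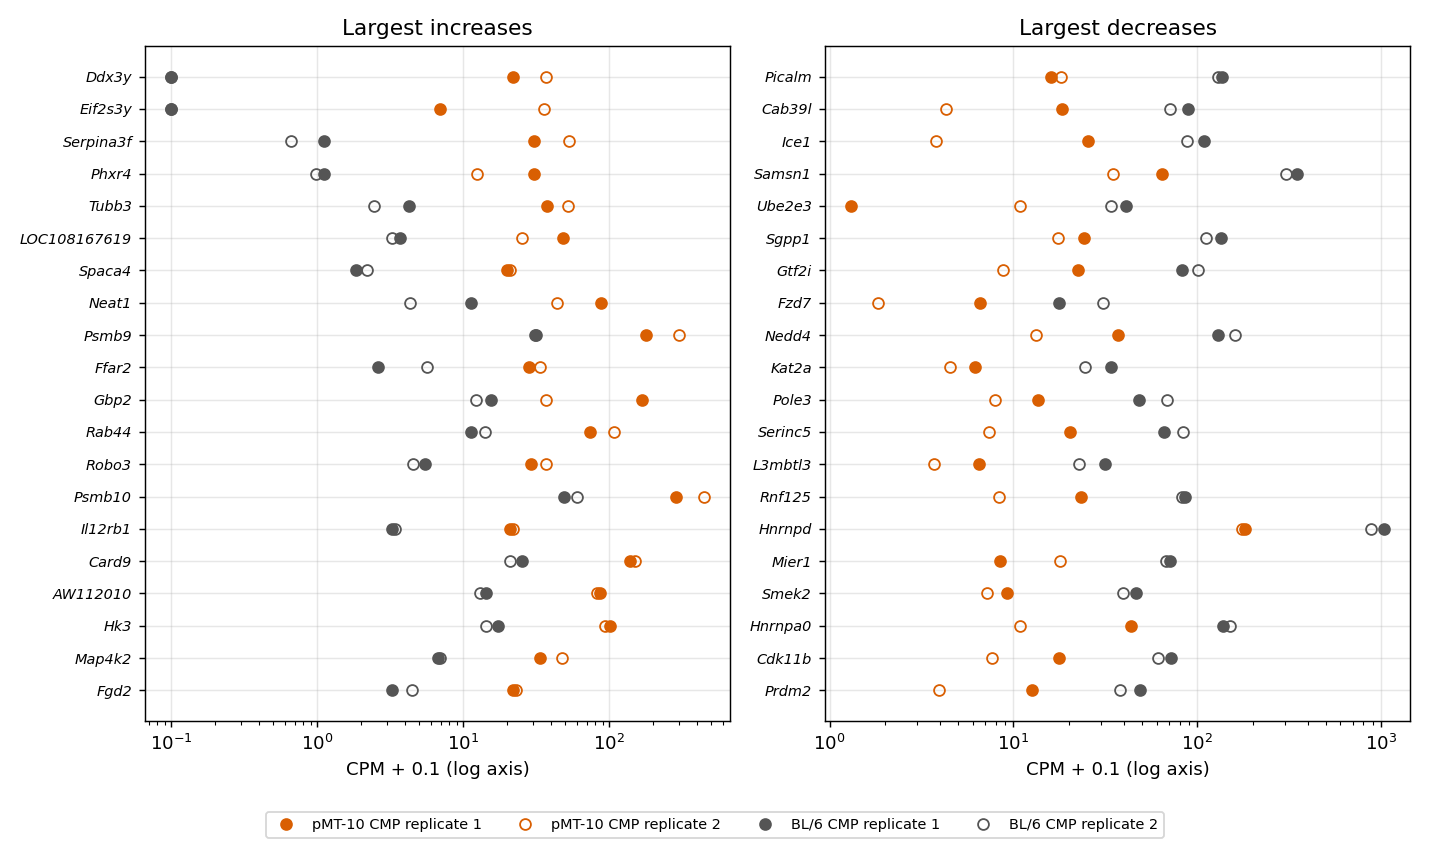
CPM (log axis, with 0.1 added) of the 20 genes with the largest increases and the 20 with the largest decreases by the naming rule, in the 2 pMT-10 CMP libraries (orange) and the 2 BL/6 CMP libraries (grey). Filled symbols are replicate 1 and open symbols replicate 2. In all 40 genes the groups do not overlap, and in several lowered genes pMT-10 replicate 2 lies well below replicate 1.

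Of 25 tested interleukin and IL-1 family genes 7 rose and 1 fell (32% called), with a median log2 fold change of 0.06. Il12rb1, a receptor chain shared by IL-12 and IL-23, rose from 3.14 and 3.31 CPM to 20.7 and 21.7 (2.71 ± 0.31, adjusted p = 0.00134). Il15ra, which presents IL-15, rose from 7.57 and 6.38 CPM to 38.1 and 37.2 (2.43 ± 0.23). Il18bp, the soluble inhibitor of IL-18, rose from 3.60 and 2.50 CPM to 16.4 and 23.3 (2.70 ± 0.33). Crlf2, the thymic stromal lymphopoietin receptor, was at 48.8 and 91.5 CPM against 15.9 and 18.8, and Il17ra at 136 and 196 against 80.9 and 87.6. These 5 genes include 4 receptor chains and 1 inhibitor. Il10rb, the second chain of the IL-10 receptor, was at 150 and 47.6 CPM against 174 and 179, and the test did not call it (-0.84 ± 0.41, adjusted p = 0.154).

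The TNF superfamily gave 6 of 22 genes higher and 1 lower (31.8%, median log2 fold change 0.68). Tnfsf14 (LIGHT) rose from 9.33 and 11.9 CPM to 36.2 and 45.2 (1.94 ± 0.25), and its receptor Tnfrsf14 (HVEM) from 41.8 and 48.2 to 72.3 and 78.9 (0.75 ± 0.19). Traf5, an adaptor of these receptors, rose by 1.20 ± 0.32. Tnfrsf21, a death receptor, was the member that fell, from 81.9 and 76.3 CPM to 31.7 and 46.8. A ligand and its receptor thus both stood higher, though the ligand moved further.

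Among enzymes that make lipid mediators 5 of 17 rose and 1 fell (35.3%, median 0.62). Alox5, 5-lipoxygenase, rose from 5.63 and 5.01 CPM to 20.3 and 37.0 (2.43 ± 0.37, adjusted p = 0.00297), and Alox5ap, the protein that hands it arachidonic acid, from 42.6 and 45.4 to 85.7 and 186 (1.63 ± 0.32). Lta4h, which makes leukotriene B4, was at 396 CPM on average in pMT-10 and 258 in BL/6. Ptgs1, a cyclooxygenase, rose by 1.27 ± 0.25, and Pla2g12a, a secreted phospholipase, fell by 0.81. In both lipoxygenase genes replicate 2 lay well above replicate 1, and both lay above the BL/6 pair. Alox5, Alox5ap and Hk3 are also expressed in mature neutrophils and monocytes, whose markers are given above.

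The NADPH oxidase list was small and split. Of 10 tested genes 3 rose and 2 fell (50% called). Ncf4, a cytosolic subunit, rose from 7.66 and 4.85 CPM to 20.9 and 19.1 (1.68 ± 0.36). Cyba, the membrane subunit p22phox, fell from 123 and 131 CPM to 64.3 and 75.8 (-0.86 ± 0.19), and Cat, catalase, from 53.1 and 41.0 to 10.4 and 17.6 (-1.75 ± 0.36). Of 9 tested lectin receptor genes Siglecf and Clec4e rose and Clec12a fell, from 17.6 and 19.5 CPM to 3.86 and 5.22. Only 9 of the 25 lectin genes passed the filter on low counts.

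Poly-ADP-ribose polymerases had 5 of 14 members higher and 1 lower (42.9%, median 0.40). Parp6 rose from 17.3 and 12.8 CPM to 48.1 and 45.8 (1.65 ± 0.24), Parp8 from 29.5 and 25.4 to 88.2 and 55.6, and Parp10 from 55.6 and 56.0 to 159 and 116. Parp14, a cofactor of STAT6 that also answers to interferon, rose by 0.95 ± 0.21. Among TRIM ubiquitin ligases 5 of 37 rose and 5 fell (27%). Trim21, a cytosolic antibody receptor, rose by 1.11 ± 0.20, whereas Trim12c fell by 1.89 and Trim8 by 0.70. Trim30a, at 103 and 99.8 CPM against 103 and 95.8, was not called (0.03 ± 0.17).

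In the secretory pathway the unfolded protein response list had 5 of 28 genes higher and 1 lower (21.4%, below the background of 28%; median 0.35). Sdf2l1, an endoplasmic reticulum chaperone partner, rose from 67.4 and 68.8 CPM to 192 and 210 (1.56 ± 0.17, adjusted p = 0.00117). Calr, calreticulin, rose from 872 and 954 CPM to 1524 and 2277, and Atf4, the transcription factor of the integrated stress response, from 416 and 436 to 860 and 784. Sel1l, of the degradation machinery for misfolded proteins, fell by 1.10 ± 0.22. The coat proteins of the Golgi did not move as 1 group: 4 of 27 rose and 5 fell (33.3%). Cope rose from 48.5 and 55.2 CPM to 114 and 138, while its partner in the COPI coat, Copb1, fell from 26.04 and 30.6 to 5.41 and 1.27. Subunits of 1 complex thus had opposite calls, each measured at a single amplicon.

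Mitochondrial ribosomal proteins had 13 of 54 genes higher and 6 lower (35.2%, median 0.11), and 14 higher and 6 lower with the GC offset. Mrpl17 rose from 70.3 and 99.9 CPM to 283 and 197 (adjusted p = 0.00348), and Mrpl40 from 29.4 and 35.9 to 83.2 and 81.0 (1.33 ± 0.20). Mrpl39 fell from 318 and 311 CPM to 102 and 100, with the replicates of each group nearly equal (-1.63 ± 0.20, adjusted p = 0.00174). Pyruvate dehydrogenase subunits Dlat and Pdha1 fell by 1.36 and 0.82 on the log2 scale. In the list of the citric acid cycle and pyruvate dehydrogenase 1 of 30 rose and 5 fell (20%). Fatty acid oxidation had 1 of 25 genes called (4%), Cpt1a, which admits fatty acids to the mitochondrion and fell by 1.24 on the log2 scale. The oxidation list was therefore far under the background share.

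The 20 largest decreases included genes of RNA binding, lipid signalling, transcription and ubiquitin ligation. Hnrnpd (AUF1), which binds AU-rich elements of short-lived messenger RNAs, fell from 1034 and 876 CPM to 182 and 174 (-2.42 ± 0.18, adjusted p = 0.000223). Samsn1, an adaptor that restrains B cell and mast cell signalling, fell from 349 and 305 CPM to 64.0 and 34.5 (-2.73 ± 0.29). Sgpp1, a phosphatase of sphingosine-1-phosphate, fell from 135 and 112 CPM to 24.1 and 17.4 (-2.57 ± 0.31), and S1pr1, a receptor for that lipid, from 56.2 and 52.5 to 24.5 and 23.5 (-1.18 ± 0.19). In Hnrnpd, Samsn1, Sgpp1 and S1pr1 (the last from the sphingolipid list) both pMT-10 libraries were far below both BL/6 libraries.

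Among others of the 20 largest decreases, Nedd4, a HECT ubiquitin ligase, was at 37.1 and 13.1 CPM against 130 and 160 (-2.53 ± 0.40), and Gtf2i, a general transcription factor, at 22.3 and 8.69 against 82.8 and 101. Cab39l, a scaffold of the LKB1 kinase, was at 18.3 and 4.17 CPM against 88.6 and 71.3, Ice1, of small nuclear RNA transcription, at 25.3 and 3.71 against 109 and 88.1, and Hnrnpa0 at 43.6 and 10.8 against 137 and 151. Kat2a (GCN5), a histone acetyltransferase, was at 6.07 and 4.40 CPM against 33.7 and 24.3. Pole3, a histone-fold subunit of DNA polymerase epsilon, was at 13.6 and 7.88 against 47.8 and 68.6. In all of these replicate 2 was the lower pMT-10 library. The others were Ube2e3, Fzd7, Serinc5, L3mbtl3, Rnf125, Smek2, Mier1, Cdk11b and Prdm2.

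Some large nuclear complexes had more decreases than increases among their calls. For the Mediator and cohesin lists the share called was near the 28% of all genes. Of 24 nuclear pore genes 9 fell and 0 rose (37.5%, median -0.17), and 9 fell and 2 rose with the GC offset. Without a BL/6 library 3 or 4 were lower, and with the LSK minus HSC difference subtracted 2. Nup188, a scaffold nucleoporin, fell from 340 and 318 CPM to 140 and 149 (-1.19 ± 0.17, adjusted p = 0.00246), Tpr, of the nuclear basket, from 378 and 354 to 178 and 153, and Ndc1, the membrane anchor, from 159 and 149 to 40.4 and 69.9. Of 30 Mediator genes 6 fell and 2 rose (26.7%, median -0.49), and 10 fell and 4 rose with the GC offset. Examples are Med22 at 63.3 and 70.5 CPM against 152 and 137 and Med12 the other way, at 261 and 206 against 125 and 144. Of 41 cohesin, condensin and centromere genes 11 fell and 0 rose (26.8%, median -0.30). This list had the lowest median GC content of all (43.3%), and with the GC offset 3 fell and 3 rose. Stag1, a cohesin subunit, kept its call (203 and 175 CPM to 90.5 and 63.2; -1.30, and -1.02 with the offset). Smc3 and Smc4, core subunits of cohesin and condensin, were called as reported (-0.87 and -0.76) and not with the offset (adjusted p = 0.0852 and 0.0992).

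Deubiquitinases had 14 of 49 genes lower and 6 higher (40.8%), and 9 lower and 8 higher with the GC offset. Usp5, which recycles free ubiquitin chains, fell from 471 and 485 CPM to 221 and 175 (-1.27 ± 0.19), and Usp1, which acts on the Fanconi anaemia complex and PCNA, from 63.6 and 53.2 to 18.9 and 18.7 (-1.64 ± 0.22). The cullin ligases were mixed (12 higher and 9 lower of 52, 40.4%): Cul1 rose from 70.9 and 68.9 CPM to 132 and 193, and Cul3 fell from 117 and 105 to 51.2 and 58.2. These 2 cullins moved in opposite directions.

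Among genes of oxygen sensing and the clock the share called was near the background. Of 18 hypoxia genes 4 fell and 1 rose (27.8%, median -0.49). Mxi1, a MAX partner that opposes MYC, fell from 122 and 107 CPM to 25.8 and 24.8 (-2.18 ± 0.24, adjusted p = 0.00119), Hif1a from 43.3 and 33.9 to 14.5 and 17.5, and Egln1, the oxygen-sensing hydroxylase, from 27.2 and 20.9 to 12.03 and 6.61. Of 17 clock genes 4 fell and 1 rose (29.4%). Cry2, a repressor of the clock, fell from 67.8 and 67.9 CPM to 31.3 and 29.3. The clock output genes Dbp and Tef fell by 1.75 and 1.82 on the log2 scale from low levels (7.39 and 10.1 CPM in BL/6 for Dbp). The time of day of collection is not given in the sources used here.

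**Figure D3:**
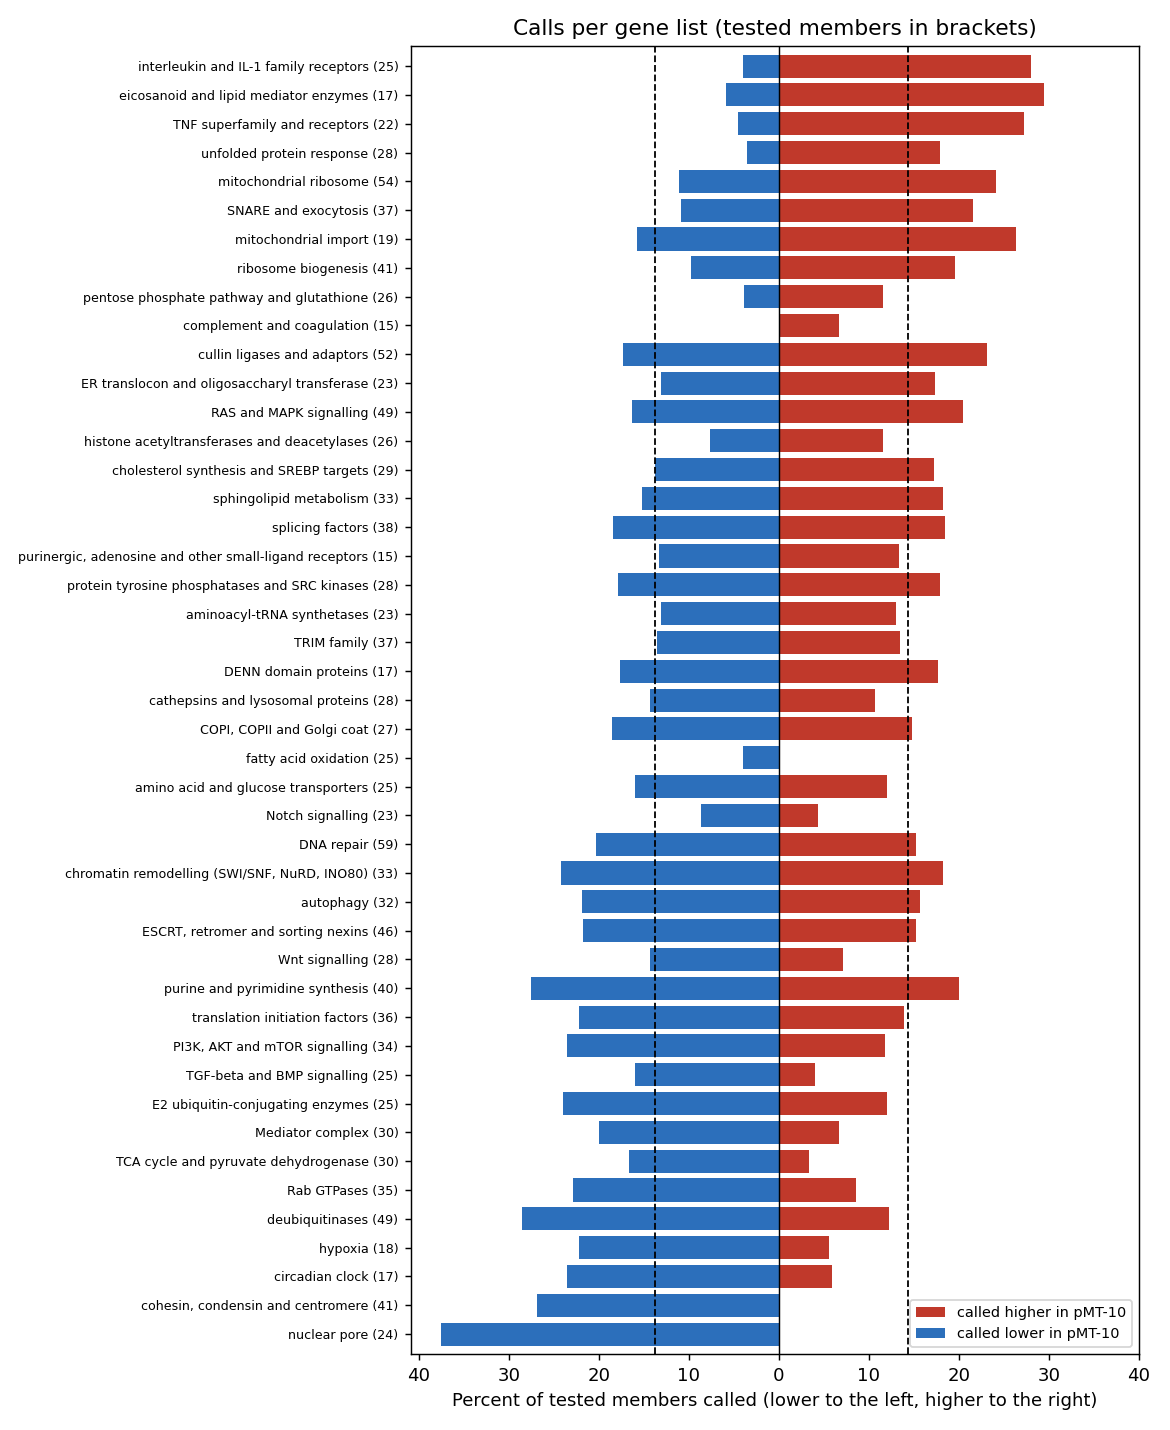
Percent of tested members called higher (right, red) and lower (left, blue) in pMT-10 CMPs for lists with 15 or more tested genes (1 list is not shown), ordered by the difference between the shares. Dashed lines mark the shares over all tested genes, 14.3% higher and 13.7% lower. Nuclear pore, cohesin and fatty acid oxidation genes have no bar to the right.

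With the GC offset the counts of several other lists also moved. RAS and MAPK genes went to 7 higher and 6 lower, cullin ligases to 9 and 6, DNA repair to 10 and 9, and translation initiation to 6 and 6. Interleukin receptor genes went to 9 higher and 1 lower, TNF genes to 7 and 2, NADPH oxidase to 4 and 2, and cholesterol synthesis to 6 and 2. Notch genes went to 0 higher and 5 lower, TGF-β genes to 0 and 2, fatty acid oxidation to 1 and 2, the citric acid cycle to 2 and 6, and Golgi coats to 4 and 7. The other lists described moved by 1 gene in a direction or not at all. Without BL/6 replicate 1 or 2 the increases called fell to 4 and 4 interleukin, 1 and 1 TNF, 2 and 1 lipid mediator and 1 and 2 PARP genes, and the decreases to 1 and 1 cohesin and 5 and 4 deubiquitinase genes. Among smaller lists, S100 and alarmin genes had 4 of 13 higher and 0 lower, the V-ATPase 3 of 14 higher and 2 lower, arginine and tryptophan metabolism 1 of 9 higher, and the TMEM176 and MS4A families 0 of 4 called.

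Signalling pathways carried calls in both directions. In the PI3K, AKT and mTOR list 4 of 34 rose and 8 fell (35.3%). Akt2 fell from 39.2 and 41.4 CPM to 13.1 and 5.91 (-2.08 ± 0.34). Pik3cd, the leukocyte catalytic subunit, rose from 83.2 and 75.4 CPM to 195 and 202, and Ddit4, an inhibitor of mTORC1, fell from 84.6 and 72.6 to 33.7 and 23.6. The RAS and MAPK list had 10 of 49 higher and 8 lower (36.7%). Map4k4, a kinase of the JNK branch, rose from 23.6 and 25.4 CPM to 55.3 and 47.3. Levels of different genes are not set against each other here, since an amplicon's yield differs between genes.

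Among phosphatases and SRC-family kinases 5 of 28 rose and 5 fell (35.7%). Ptpn18 rose from 22.0 and 24.8 CPM to 112 and 93.2 (2.13 ± 0.20, adjusted p = 0.000657), and Tec, a TEC-family kinase, from 15.6 and 14.8 to 46.5 and 52.4. Ptpn1 (PTP1B), a phosphatase of JAK kinases, fell from 155 and 135 CPM to 50.98 and 37.8 (-1.71 ± 0.21). Of Wnt genes 2 of 28 rose and 4 fell (21.4%): Dvl1 rose from 23.8 and 25.4 CPM to 83.1 and 93.2, and Gsk3b, the kinase that marks β-catenin for destruction, fell from 59.5 and 51.3 to 12.9 and 15.2 (-1.98 ± 0.22). Notch2 fell by 0.88 ± 0.17, from 319 and 307 CPM to 158 and 182, with 1 of 23 Notch genes higher and 2 lower (13%). TGF-β genes had 1 of 25 higher and 4 lower (20%).

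Traffic between membranes was likewise divided. Of 35 Rab GTPases 3 rose and 8 fell (31.4%). Rab10 fell from 542 and 499 CPM to 152 and 201 (-1.56 ± 0.19), Rab8b from 251 and 215 to 76.0 and 45.1 and Rab21 from 84.5 and 70.0 to 20.9 and 25.96. Of SNARE and exocyst genes 8 of 37 rose and 4 fell (32.4%), among them Stx3 at 36.3 and 33.1 CPM against 16.6 and 17.8. The V-ATPase subunit Atp6v1e1 rose from 32.7 and 41.7 CPM to 99.3 and 215, while Atp6v1a fell from 50.4 and 41.2 to 20.1 and 22.1. In autophagy (5 of 32 higher, 7 lower, 37.5%) Atg16l2 rose by 2.48 ± 0.35 and Gabarap fell from 605 and 614 CPM to 290 and 298.

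Nucleotide synthesis had 19 of 40 genes called (47.5%), with 8 higher and 11 lower; with the GC offset 7 were higher and 7 lower. Prps2, which makes the ribose donor PRPP, fell from 182 and 164 CPM to 55.7 and 36.7 (-1.90 ± 0.23), and Adss, of adenylate synthesis, from 356 and 316 to 150 and 125. Shmt2, the mitochondrial serine hydroxymethyltransferase, rose from 192 and 215 CPM to 380 and 419 (0.97 ± 0.18), and Tyms, thymidylate synthase, fell from 155 and 162 CPM to 36.6 and 26.4. In DNA repair 9 of 59 rose and 12 fell (35.6%). Fancf rose from 28.3 and 33.0 CPM to 67.8 and 83.9, whereas Fanci fell from 46.7 and 45.8 to 18.6 and 17.6. Members of the Fanconi anaemia pathway had calls in both directions.

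Chromatin remodelling had 6 of 33 genes higher and 8 lower (42.4%). Smarcd1, a SWI/SNF subunit, fell from 133 and 123 CPM to 41.4 and 66.8, and Mta1, of the NuRD complex, rose from 206 and 209 to 339 and 410. Splicing factors had 7 of 38 genes higher and 7 lower (36.8%). Srsf2 fell from 2017 and 2176 CPM to 951 and 977 (-1.12 ± 0.16), and Snrpb, a core protein of small nuclear ribonucleoproteins, from 2724 and 2544 to 1148 and 610. Ptbp1, a splicing repressor, rose from a mean of 220 to 614 CPM. Translation initiation factors had 5 of 36 higher and 8 lower (36.1%), with Eif3a at 493 and 575 CPM against 1440 and 1235 (-1.32 ± 0.18) and Eif4ebp2, a repressor of eIF4E, at 488 and 400 against 908 and 968. Among aminoacyl-tRNA synthetases 3 of 23 rose and 3 fell (26.1%): Eprs fell from 546 and 453 CPM to 182 and 221 and Tars rose from 38.8 and 36.5 to 81.3 and 104. In cholesterol and fatty acid synthesis (5 of 29 higher, 4 lower, 31%) Fasn rose from 107 and 106 CPM to 239 and 289, and the sterol-responsive factor Srebf2 fell from 227 and 191 to 57.4 and 90.3.

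Grouping genes only by the letters of their symbols gave 68 families with 15 or more tested members. Their median share called was 27.3%, close to the 28% of all genes, and 4 families reached 42% or more. Ankyrin-repeat Ankrd genes led with 9 of 29 higher and 6 lower (51.7%), from Ankrd16 (7.66 and 8.56 CPM to 19.2 and 24.3) to Ankrd40 (83.9 and 92.1 to 47.9 and 31.4). Of 15 Bcl genes 4 rose and 3 fell (46.7%). Bcl2, the survival gene, rose from 11.7 and 11.6 CPM to 36.0 and 45.6 (1.81 ± 0.29, adjusted p = 0.0036), and Bcl3, an atypical IκB protein, from 2.68 and 3.72 to 9.60 and 9.97. The largest family, zinc finger Zfp genes, had 18 of 267 higher and 46 lower (24%), and 21 and 39 with the GC offset. Rad genes had 4 of 18 higher and 4 lower (44.4%) and Usp genes 6 of 43 higher and 13 lower (44.2%). With the GC offset the counts were 5 and 6 for Ankrd, 2 and 3 for Bcl, 4 and 2 for Rad, and 7 and 8 for Usp.

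The 2 pMT-10 libraries agreed less with each other than the BL/6 libraries did. Among 7889 genes with a mean of at least 10 CPM in the pair, the log2 difference between the pMT-10 libraries had an SD of 0.604, and 8.66% of genes differed more than 2-fold. The BL/6 pair had an SD of 0.194, with 4 of 7840 genes beyond 2-fold (0.051%), and the LSK pair, on the same chip as the pMT-10 CMPs, an SD of 0.326 (0.637%). The difference was one-sided: 477 genes were over 2-fold higher in replicate 1 and 206 in replicate 2, and 57 against 9 were over 4-fold higher. The median log2 difference was -0.019.

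Genes that most cells express were among those that dropped in replicate 2. Npm1, nucleophosmin, was at 1723 and 438 CPM in the pMT-10 libraries and 2207 and 2117 in BL/6. Cct6a, a chaperonin subunit, was at 385 and 48.1 CPM against 434 and 500, Mrto4, of ribosome assembly, at 339 and 39.99 against 375 and 394, and Rbm7, of the nuclear exosome, at 193 and 15.0 against 288 and 304. With Ppid, Anp32e, Poglut1, Fip1l1, Klhl11, Tor1a and Tsen15, these last 3 are the 10 genes with a mean of at least 50 CPM that lay furthest below replicate 1 in replicate 2. In the BL/6 pair these 10 differed by at most 0.213 on the log2 scale and in the LSK pair by at most 0.424. In each of the 10 genes replicate 2 was below both BL/6 libraries, while replicate 1 was above them in Fip1l1, Klhl11, Poglut1, Tor1a and Tsen15 and below them in the others. The test called none of the 10.

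In the other direction Ndufb8, a subunit of respiratory complex I, was at 48.3 and 281 CPM against 108 and 95.9, E2f8, a cell cycle repressor, at 46.1 and 220 against 177 and 161, and Hnrnpm at 53.3 and 227 against 156 and 116. In these 3 genes the pMT-10 libraries lay on either side of the BL/6 libraries. Replicate 2 was the lower library in 59.6% of the 1566 genes called lower and in 39.3% of the 1638 called higher, against 49.1% of all tested genes. In both directions replicate 2 was more often the pMT-10 library further from BL/6. Without replicate 2 the log2 fold change of Picalm was -3.05, of Nedd4 -1.97, of Ice1 -1.96 and of Cab39l -2.12. Without replicate 1 the values were -2.88, -3.47, -4.72 and -4.26.

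**Figure D4:**
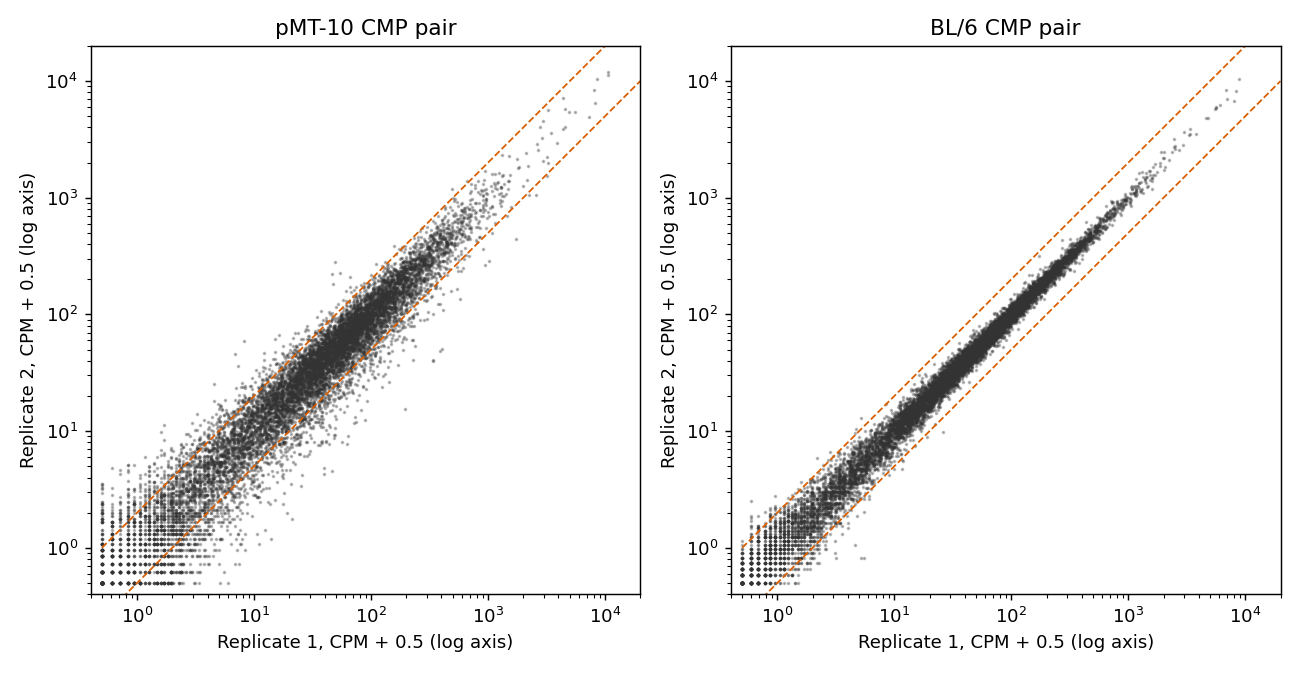
CPM of replicate 2 against replicate 1 (log axes, with 0.5 added) for each tested gene in the pMT-10 CMP pair (left) and the BL/6 CMP pair (right). Dashed lines mark a 2-fold difference. In the pMT-10 pair 477 genes lie beyond 2-fold towards replicate 1 and 206 towards replicate 2, and in the BL/6 pair 3 and 1, among genes with a mean of at least 10 CPM.

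**Figure D5:**
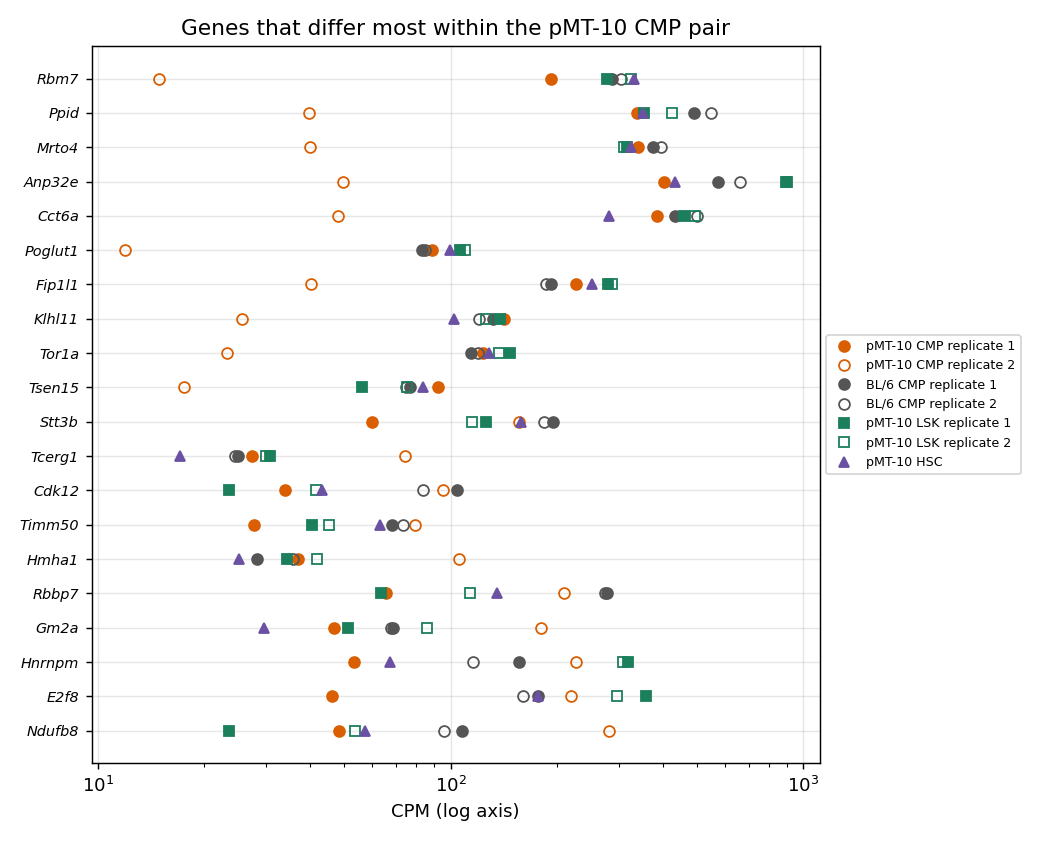
CPM (log axis) of the 10 genes with a mean of at least 50 CPM that were furthest below in pMT-10 CMP replicate 2 and the 10 that were furthest above, in each of the 7 libraries. For the first 10 genes pMT-10 CMP replicate 2 stands below the other 6 libraries, which lie close together for most of them.

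The other pMT-10 libraries lie on both chips and give levels for the same genes in other cells. LSK cells were read on the chip of the pMT-10 CMPs and HSC on that of the BL/6 CMPs, so chip and population cannot be told apart between them. The fit called 2147 genes between LSK and HSC (18.8%), 8.15% higher and 10.6% lower in LSK. HSC is 1 library, which was assumed to vary like the other groups, so these calls and the shares below have no replicate check on that side. Of the genes called lower in pMT-10 CMPs 221 (14.1%, and 18.2% of the genes lower in LSK) were also lower in LSK than in HSC and 10.4% higher. Of those called higher 172 (10.5%, and 18.5% of the genes higher in LSK) were also higher in LSK and 9.65% lower. Picalm was at 19.2 and 28.1 CPM in LSK and 41.7 in HSC, and Hnrnpd at 337 and 371 in LSK and 705 in HSC. Card9 was at 35.1 and 24.3 CPM in LSK and 45.8 in HSC, and Il15ra at 31.8 and 33.8 in LSK and 67.2 in HSC. Subtracting the LSK minus HSC difference, a fit that also takes out what these cells differ in, gave 2125 called genes, of which 1145 were among the 3204 with the same direction. This fit rests on the single HSC library too. Graded by call and direction, 95 of the 165 genes named were the same in this fit, 60 were weaker and 1 was stronger. The fit turned the direction of 9 called genes named above: Siglecf (to -2.06), Stx3 (-1.67), Il17ra (-0.87), Tnfrsf14 (-0.70), Clec4e (-4.87), Mta1 (-0.01), Nup188 (0.05), Sel1l (0.01) and Snrpb (0.14). In this fit Siglecf and Stx3 had adjusted p-values of 0.0082 and 0.0119, again with 1 HSC library.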

How the data were processed

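Gene expression in sorted bone marrow cells was measured with an Ion AmpliSeq mouse transcriptome panel, 1 amplicon per gene. The authors deposited raw read counts per amplicon. The submitters' processing notes name mm10 as the build, and the sources used here give no aligner. Reads carry no molecular identifiers, so a count is of reads and not of molecules. The error in the fit is estimated from the spread between libraries, which may be technical. Genes with near-identical copies may share reads. The members and gene lists were chosen with earlier results of these data known.

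The tests were tried on simulated counts first. Of 96 genes with a simulated log2 fold change of 1 the fit recovered 26, and of 98 with a change of 2 it recovered 86. Of its 121 calls 9 were false (7.44%). The simulation gave each gene the same dispersion in all groups, unlike the unequal pairs seen here. Genes were kept by filterByExpr (minimum count 10). All 7 libraries in 4 groups were scaled with TMM and fitted with edgeR 4.0.16 (R 4.3.3) by the robust quasi-likelihood F-test with 3 residual degrees of freedom. Adjusted p-values are Benjamini-Hochberg over all tested genes, with a threshold of 0.05, and values after ± are standard errors. DESeq2 1.42.0 and limma 3.58.1 served as alternatives.

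The named genes are the 20 largest called changes each way with at least 20 CPM in the higher group (leaving out unnamed gene models and genes already named for these data), up to 4 called members of a list or family by p, list members with a mean of at least 100 CPM, and the 10 genes differing most each way within the pMT-10 pair. Igtp and Xist were added after their values were seen. Some genes and lists are not reported here.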

Additional observations from a re-analysis of the deposited data

How the results depend on the processing

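The count of 3204 called genes ranged from 582 to 5268 when 1 of the 4 CMP libraries was left out, and the 472 called genes of the fixed lists from 81 to 767. Subtracting the LSK minus HSC difference gave 2125 and 276. Of the 165 genes named, 60 were graded weaker under that subtraction. The direction turned in 9 others: Clec4e -4.87, Il17ra -0.87, Mta1 -0.01, Nup188 0.05, Sel1l 0.01, Siglecf -2.06, Snrpb 0.14, Stx3 -1.67 and Tnfrsf14 -0.70. The cause was not tested. No other setting run turned the direction of a named gene. Other settings gave 3166 (DESeq2's size factors), 3165 (total counts), 3749 (no filter), 3106 (minimum count 50), 2274 (only CMP libraries), 3309 (DESeq2), 2967 (limma-voom with quality weights) and 3076 (GC offset) called genes. With the replicate number as a block, 2979 genes of a 6-library fit without HSC were called. The numbers mark no shared mouse or day in the labels, and deviations of same-numbered CMP libraries correlated at -0.019. That is a single correlation between the differences of the pairs, so it cannot tell whether same-numbered libraries share a mouse, day or sort. With 2 libraries in each group, and at least 8467014 counts in each, smaller differences may go uncalled.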

Other observations

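Xist and the Y-linked genes varied between the pMT-10 libraries outside the CMPs as well. Xist was at 284 and 0.144 CPM in the LSK libraries and 127 in the HSC library. Ddx3y was at 42.6 and 74.8 CPM in LSK and 49.0 in HSC, and at 0 in both BL/6 CMP libraries.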
